A study of Mus musculus with 6 samples.

Results

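The cell cycle and DNA replication genes described here are 45 genes taken by their symbols from the 43629 genes counted in each library. They comprise 14 genes of the G1/S decision, 12 genes of DNA replication and 19 genes of mitosis, and all 45 were among the 15470 genes with enough reads to be tested. RNA was sequenced from ventricular cells of CD-1 mouse embryos at embryonic day 13.5, pooled within a litter, depleted of fast-attaching cells and cultured. The cultures received 12 nM siRNA for 72 h, either a pool of 4 siRNAs against DNMT1 (3 cultures) or AllStars negative siRNA (3 cultures), and cells carrying VCAM1, a surface protein of embryonic cardiomyocytes, were then collected on magnetic beads. Both groups were wild type and shared the lipid transfection and the sort, so the comparison is of a partial loss of Dnmt1 RNA in cells already in culture. The titles of the knockdown samples name DNMT1, whereas DNMT3a siRNA is written in their treatment field. The sources do not say whether the 3 cultures of a group came from separate litters, so the p-values measure the spread between these cultures.

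A dividing cell passes through G1, copies its DNA in S phase, and separates the copies in mitosis after another gap, G2. In G1 the D cyclins bind the kinases CDK4 and CDK6, which phosphorylate the retinoblastoma protein and release E2F transcription factors, and cyclin E with CDK2 then drives entry into S phase. CDC6 and CDT1 load the ring of MCM2 to MCM7, the replicative helicase, onto origins, and PCNA holds the polymerases on DNA. Entry into mitosis is driven by CDK1 with cyclins A and B, and Aurora and Polo-like kinases and kinesin motors build the spindle. DNMT1 copies methylation onto new DNA strands at the replication fork, where it binds PCNA and UHRF1. Cardiomyocytes of the embryo still divide, and most leave the cell cycle soon after birth.

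The promoters of these genes carry short motifs that are known to tie their transcription to cell cycle phase. RefSeq promoter windows, from 250 bases before to 50 bases after a start site on GRCm38.p6, were given for 35 of the 45 genes (39 windows), and not for Ccnd1, Ccnd2, Ccne2, Rb1, Mcm4, Foxm1, Ccna2, Cdc25c, Aurkb and Kif20a. Each motif was searched on both strands, and the motifs do not contain each other. The E2F-type motif TTTGGCGC occurred in 4 of 12 windows of replication genes (33.3%), in 2 of 13 of G1/S genes and in 0 of 14 of mitosis genes, against 0.514% of all 32851 promoter windows. Another E2F-type motif, TTTCCCGC, was found in 3 of 12 replication, 2 of 13 G1/S and 0 of 14 mitosis windows, against 1.07% of all windows. The mitosis windows instead held CCAAT, the motif of the factor NF-Y, in 13 of 14 (92.9%) and TTTGAA, the core of the cell cycle homology region that keeps genes silent before G2, in 10 of 14 (71.4%), against 37.4% and 17.9% of all windows. The members' windows were rich in CpG, the dinucleotide that DNMT1 methylates, with a median of 24 per window against 7 in all windows. Among the 11378 windows with at least 15 CpG, a comparison chosen after the data were seen, the shares were 1.12% for TTTGGCGC, 2.41% for TTTCCCGC, 34.9% for CCAAT and 8.16% for TTTGAA. A match of letters is a description and not evidence that a factor was bound in these cells.

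Stretches of 3 of these promoters are shown because they belong to the 2 genes with the lowest adjusted p-values and to a mitotic cyclin that holds both mitotic motifs. Capitals mark the motifs, and ATTGG is CCAAT read on the other strand. The Mcm6 stretch covers bases 120 to 1 before the start site (chr1:128359706-128359825, minus strand), the Cdt1 stretch bases 16 to 45 counted from 1 at the start site (chr8:122568030-122568059, plus strand), and the Ccnb2 stretch runs from 110 bases before to 20 bases after it (chr9:70421535-70421664, minus strand).
Mcm6: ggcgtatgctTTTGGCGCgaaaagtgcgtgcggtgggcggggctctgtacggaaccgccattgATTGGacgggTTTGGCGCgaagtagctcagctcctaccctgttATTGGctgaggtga
Cdt1: tccgcgggaactaccttTTTGGCGCcatgg
Ccnb2: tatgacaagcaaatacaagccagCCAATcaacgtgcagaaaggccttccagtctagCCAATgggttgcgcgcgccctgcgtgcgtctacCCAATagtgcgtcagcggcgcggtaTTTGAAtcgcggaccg

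Dnmt1, the targeted gene, was at 3446.5, 2759.5 and 2878 normalized counts in the 3 negative siRNA cultures and at 772.4, 785.7 and 665.6 in the 3 DNMT1 siRNA cultures. The knocked-down cultures thus held 24.5% of the control level (log2 fold change −2.03, SE 0.11, adjusted p = 0.000192 by edgeR's quasi-likelihood test). Dnmt3a, named in the treatment field, was at 118% of control and did not pass the test (adjusted p = 0.0919 by the same edgeR test). Depth differed with treatment: reads on genes numbered 27852412 to 35896018 in the negative siRNA libraries and 13739561 to 16186310 in the DNMT1 siRNA libraries, and the share of uniquely mapped reads outside annotated exons was 16.4% ± 1.58 (SD, n = 3) against 29.3% ± 4.23. Cardiomyocyte markers were present in all cultures, and 6 of 8 rose, with summed levels of 1683 to 2104 CPM (per-million counts) in control and 3349 to 4229 CPM after knockdown. Vcam1, on which the cells were sorted, was at 83.6% of control (adjusted p = 0.148 by edgeR). RNAs of other cell types were abundant as well. Markers of fibroblasts and mesenchyme summed to 36080 to 55680 CPM and 27400 to 29240 CPM (3 of 8 fell), those of smooth muscle and pericytes to 5438 to 8060 and 4559 to 4749 CPM (1 of 7 fell), and those of the epicardium to 1519 to 1777 and 1685 to 1757 CPM (1 of 6 fell). Endothelial and endocardial markers summed to 93.18 to 123.2 and 213 to 227.1 CPM (3 of 8 rose) and macrophage markers to 15.32 to 40.07 and 12.66 to 18.38 CPM (1 of 7 fell), while the 5 globin genes were at 0 in all negative siRNA cultures. Among the endothelial markers Npr3 alone went from a mean of 333.3 to 2232 normalized counts, and Tek and Nfatc1 lay below control (log2 fold changes −0.35 and −0.11). Markers were counted at a false discovery rate below 0.05 and a change above 1.5-fold, at which 4.26% of all genes rose and 2.23% fell. In bulk RNA, fewer cells of a type cannot be told apart from less RNA per cell. The part of depth, RNA outside exons and cell makeup in the values below was not tested.

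At the study's limits, a false discovery rate below 0.05 and a change above 1.5-fold, 0 of the 45 cell cycle genes rose and 0 fell after DNMT1 knockdown, against 4.26% of all genes tested that rose and 2.23% that fell. DESeq2 and edgeR's exact test also called 0 members at these limits, and 9 of 45 had an unadjusted p below 0.05 in edgeR's quasi-likelihood test, against 29.2% of all genes. On the false discovery rate alone 0 members rose and 2 fell, Mcm6 and Cdt1, against 6.81% and 5.65% of all genes. The share that fell was thus near the background. The log2 fold changes ran from −0.57 (Cdt1) to 0.47 (Ccnd1) with a median of −0.08, where the median of all genes was 0, and 33 of the 45 values were below 0, against 50.7% of all genes. The 95% interval of the fold change lay within 1.5-fold in both directions for 40 of the 45 members, against 55.6% of all genes tested. The 5 whose interval reached past 1.5-fold were Ccnd1, Rb1 and E2f2 on the upper side and Cdt1 and Mcm6 on the lower side. The 3 values of each group did not overlap in 4 members that were higher (Ccnd1, Ccnd3, Rb1 and Cenpf, against 18.3% of all genes) and 6 that were lower (Cdk4, Ccne1, Cdk2, Cdt1, Mcm3 and Mcm6, against 17.7%).

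**Figure D1:**
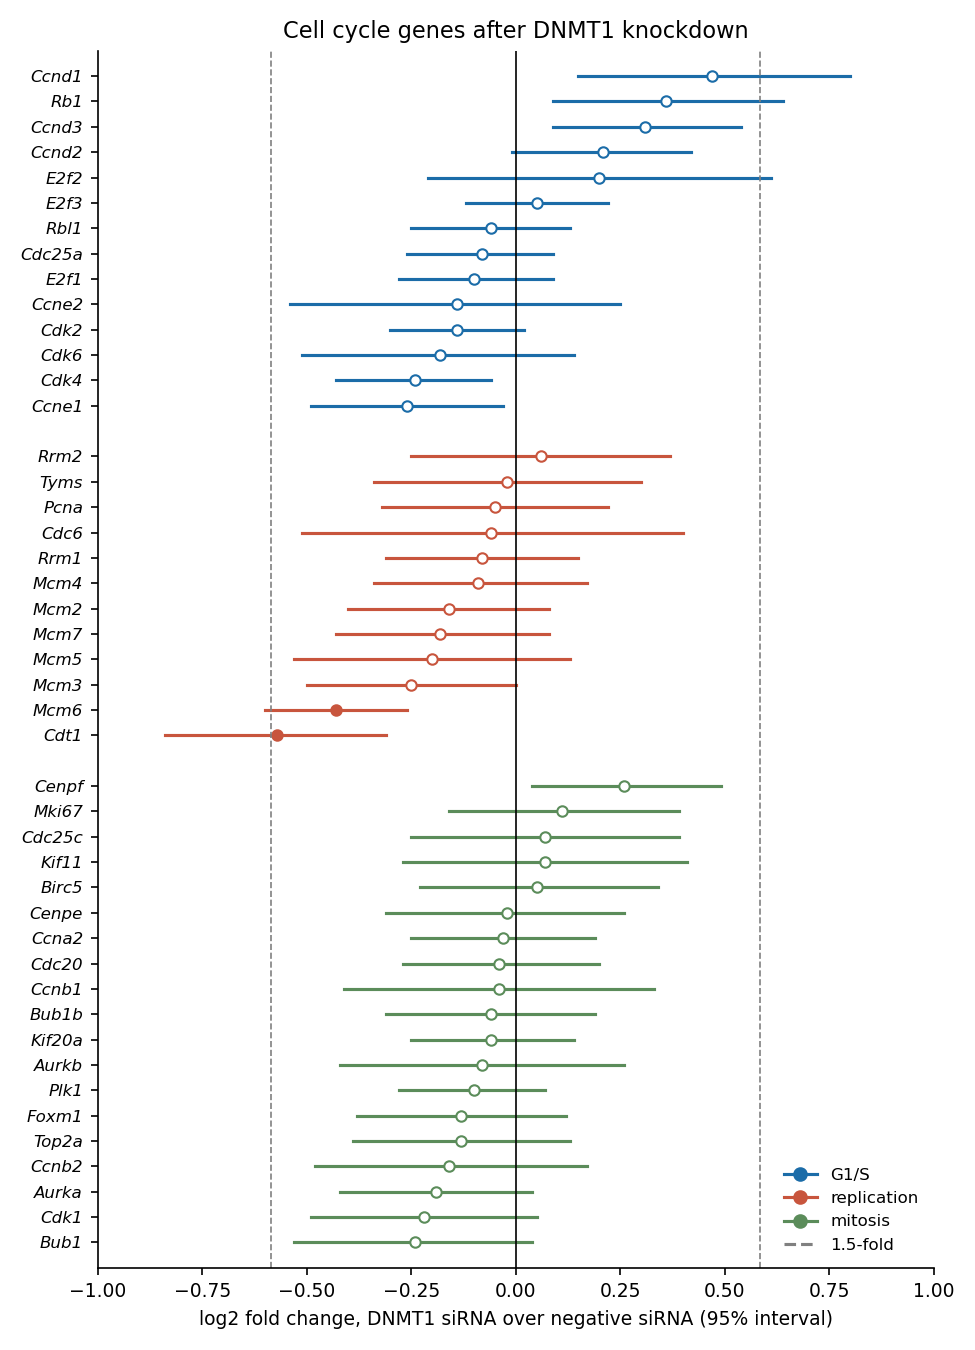
The log2 fold change of DNMT1 siRNA over negative siRNA (x axis) is plotted for the 45 genes, with the 95% interval as a bar, dashed lines at 1.5-fold and a colour for each role; filled points are the genes with a false discovery rate below 0.05. Only Mcm6 and Cdt1 are filled, and 40 of the 45 bars lie between the dashed lines.

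Among the 14 G1/S genes, 6 values lay above 0 and 8 below, with a median log2 fold change of −0.07, and none passed the test. The D cyclins and the kinases that they activate differed in the sign of their changes. Ccnd1, which encodes cyclin D1, was at 2532, 1760.6 and 2620.6 normalized counts in control and at 2958.1, 3336.5 and 3311.9 after knockdown. All 3 knockdown values lay above all 3 control values, but the controls spread widely and the difference missed the limit (log2 fold change 0.47, SE 0.14, adjusted p = 0.065 by edgeR). DESeq2 and edgeR's exact test placed Ccnd1 below the limit at the same log2 fold change of 0.47 (adjusted p = 0.0132 and 0.0205), as did the edgeR fit without negative siRNA replicate 2 (0.31, adjusted p = 0.0169), the lowest control. Ccnd3, cyclin D3, was at 3973.4, 5148.8 and 4990 in control and at 5830.4, 5938.4 and 5771.7 after knockdown. The knockdown values were again higher and much closer together than the controls (log2 fold change 0.31, SE 0.1, adjusted p = 0.0758 by edgeR, 0.0374 by DESeq2, and 0.0216 by edgeR without negative siRNA replicate 2). Ccnd2, cyclin D2, was at 33418.8, 32244.1 and 39662.1 against 40161.2, 39535.2 and 42104.1, and the lowest knockdown value lay just under the highest control (0.21, SE 0.09, adjusted p = 0.182 by edgeR, and 0.31 with adjusted p = 0.0299 without negative siRNA replicate 3). Each D cyclin passed in only 1 of the 6 edgeR fits that left out a culture. The highest adjusted p over those edgeR fits was 0.217 for Ccnd1, 0.456 for Ccnd2 and 0.242 for Ccnd3. Exons of 14 of the 45 members, among them the 3 D cyclins, Cdk4, Cdk6, Cdk2 and Rb1, overlap a gene on the opposite strand, and the strand setting of the counting is not given, so reads of such neighbours cannot be told apart from theirs.

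The kinase partners of the D cyclins, Cdk4 and Cdk6, had lower means than control, and neither passed the test. Cdk4 was at 5893.9, 5442.5 and 4817.4 in control and at 4598.1, 4469.1 and 4579.4 after knockdown. The groups did not overlap, and the difference missed the limit (log2 fold change −0.24, SE 0.08, adjusted p = 0.0917 by edgeR, and −0.32 with adjusted p = 0.0259 without negative siRNA replicate 3). Cdk6 was at 2449.7, 1675.1 and 2409.9 against 1862.6, 1808.9 and 2088.5, and here replicate 2 of the control lay under all knockdown values (−0.18, SE 0.14, adjusted p = 0.435 by edgeR, and −0.34 with adjusted p = 0.0148 without that culture). Cdk4 and Cdk6 each passed in only 1 of the 6 fits that left out a culture (highest adjusted p = 0.278 and 0.724 by edgeR). Relative to Cdk4, reads on the 3 D cyclins together numbered 6.774, 7.194 and 9.813 per Cdk4 read in control and 10.65, 10.92 and 11.18 after knockdown. This ratio, formed within each culture, does not depend on the scaling between libraries (7.93 ± 1.65 against 10.9 ± 0.266, SD, n = 3; exact two-sided permutation test, p = 0.1, below which groups of 3 cannot go; adjusted p = 0.2 over 12 ratios chosen after the data were seen). Cyclin D2 made up 83.3% ± 0.843 of D cyclin reads in control and 81.8% ± 0.673 after knockdown (exact permutation test, p = 0.1, adjusted p = 0.2).

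Ccne1 and Ccne2 encode the E cyclins, and Cdk2 their kinase. Ccne1 was at 549.7, 483.9 and 451.8 in control and at 430.4, 415.4 and 395.8 after knockdown, a lower group without overlap (log2 fold change −0.26, SE 0.1, adjusted p = 0.132 by edgeR). Cdk2 was the steadiest member in control, at 858.4, 856.9 and 853.8, and was at 779.1, 804.6 and 750.7 after knockdown (−0.14, SE 0.07, adjusted p = 0.227 by edgeR). The difference between the means was larger than either group's range for Cdk2 but smaller than the control range for Ccne1, and both intervals stayed within 1.5-fold. The log2 fold change of Ccne2 was −0.14 (95% interval −0.54 to 0.25), and that of Cdc25a, the phosphatase that activates CDK2, was −0.08 (−0.26 to 0.09).

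Rb1, which encodes the retinoblastoma protein, was at 552, 407.4 and 500.8 in control and at 641, 590.3 and 647.7 after knockdown. The groups did not overlap, and the difference missed the limit (log2 fold change 0.36, SE 0.12, adjusted p = 0.0844 by edgeR, and 0.47 with adjusted p = 0.0358 without negative siRNA replicate 1). Of the 6 fits that left out a culture, Rb1 passed in only 1 (highest adjusted p = 0.267 by edgeR). Its relative Rbl1, which encodes p107, had a log2 fold change of −0.06 (95% interval −0.25 to 0.13). The activator E2F genes held near their control levels, E2f1 at 93.6% (log2 fold change −0.1, interval −0.28 to 0.09) and E2f3 at 103% (0.05, interval −0.12 to 0.22). E2f2 was at 85.8, 88.2 and 98 in control and at 91.2, 126.8 and 94.9 after knockdown, where replicate 2 alone stood higher, and its interval, −0.21 to 0.61, did not exclude a rise past 1.5-fold.

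**Figure D2:**
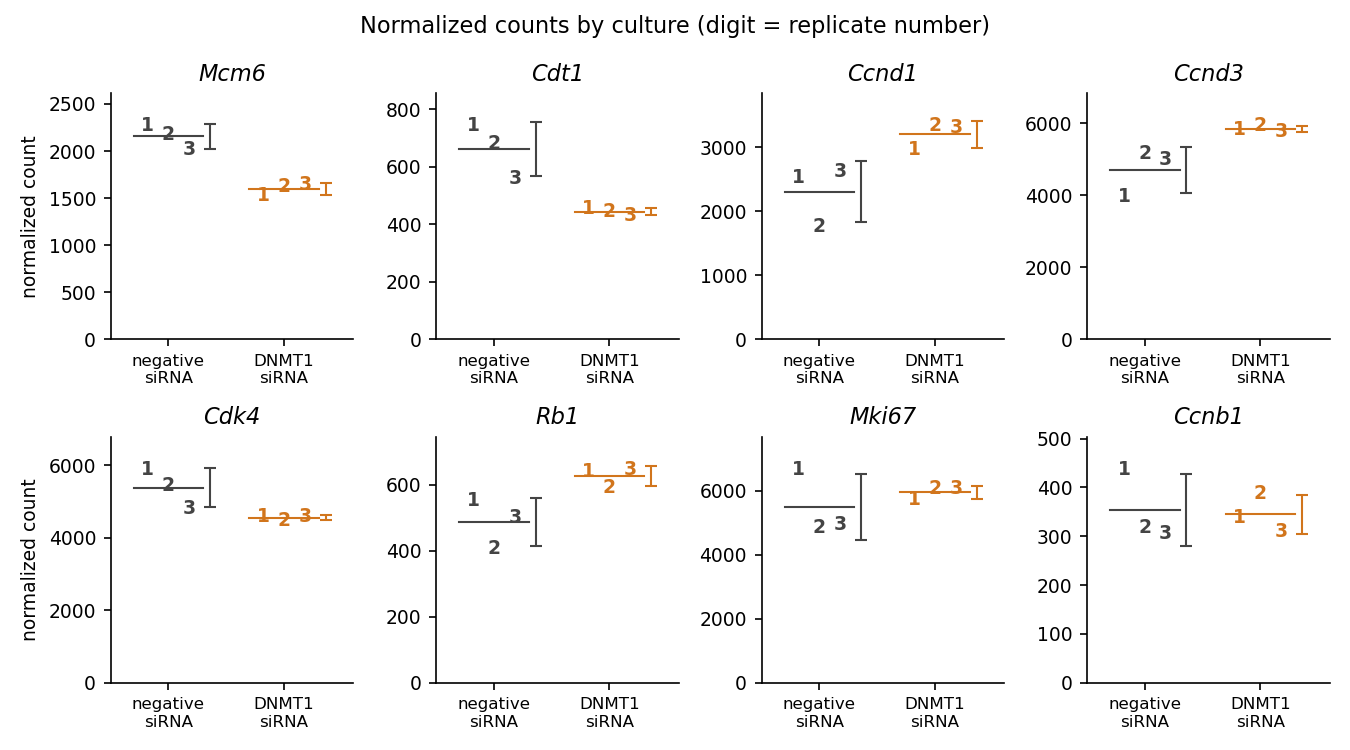
Normalized counts (y axis, from 0) of 8 members in each culture, with digits for replicate numbers, horizontal lines at group means and bars of ± 1 SD (n = 3) beside them. The DNMT1 siRNA values lie below all controls in Mcm6, Cdt1 and Cdk4, above them in Ccnd1, Ccnd3 and Rb1, and among them in Mki67 and Ccnb1.

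The 12 replication genes lay mostly below control: 11 of 12 log2 fold changes were below 0, with a median of −0.13, and only Rrm2 was above. Without negative siRNA replicate 1, the highest control in all 12, the median was −0.01 and 7 of 12 values were below 0. The 2 members that passed the false discovery rate, Mcm6 and Cdt1, both belong to origin licensing. The other licensing members, Cdc6 and the remaining MCM genes, did not pass. With 2 of 45 members against 5.65% of all genes, the share that fell was near the background, and no theme is drawn from it. Mcm6 (ENSMUSG00000026355, chr1:128331590-128359664, minus strand), a subunit of the MCM helicase, was at 2270.6, 2179.8 and 2014.8 normalized counts in control and at 1526, 1626.7 and 1645.3 after knockdown. The gap between the groups was wider than the range of either, and Mcm6 fell to 74.2% of control (log2 fold change −0.43, SE 0.07, adjusted p = 0.0091 by edgeR), short of the 1.5-fold limit. Cdt1 (ENSMUSG00000006585, chr8:122568015-122573554, plus strand), the licensing factor that loads MCM rings, was at 743.4, 680.4 and 559.9 in control and at 454.6, 446 and 431.8 after knockdown. Again every knockdown value lay under every control, and Cdt1 fell to 67.2% of control (−0.57, SE 0.11, adjusted p = 0.0171 by edgeR), just inside 1.5-fold. No other annotated gene overlaps the exons of either. Most fits with 1 knockdown culture fewer missed the limit: the adjusted p of Cdt1 was 0.0656, 0.0884 and 0.081 without DNMT1 siRNA replicates 1, 2 and 3, and that of Mcm6 was 0.0547, 0.0582 and 0.0435, with log2 fold changes no closer to 0 than −0.57 and −0.42.

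The remaining MCM subunits had smaller values. Mcm3 was at 1468.8, 1176 and 1108.1 in control and at 1025.8, 1084.5 and 1045.1 after knockdown, below control without overlap (log2 fold change −0.25, SE 0.11, adjusted p = 0.171 by edgeR). Mcm2, Mcm4, Mcm5 and Mcm7 had log2 fold changes between −0.2 (Mcm5) and −0.09 (Mcm4), their groups overlapped, and all their intervals stayed within 1.5-fold. Mcm6 therefore took a smaller share of the reads on Mcm2 to Mcm7 in each knockdown culture, at 23.7%, 27.73% and 26.44% in control and 21.65%, 22.22% and 23.61% after knockdown. The groups did not overlap, although replicate 1 of the control and replicate 3 of the knockdown nearly met (26% ± 2.05 against 22.5% ± 1.01; exact permutation test, p = 0.1, adjusted p = 0.2). This share uses the same counts as the test of Mcm6 and adds no support to it. All ratios were chosen after the data were seen, and groups of 3 cannot go below p = 0.1 in the permutation test. The share of Mcm4 was 18.9% ± 0.892 in control and 21% ± 0.986 after knockdown (exact permutation test, p = 0.1, adjusted p = 0.2), and those of Mcm2, Mcm3, Mcm5 and Mcm7 overlapped between groups. Cdt1 was also set against Gmnn, which encodes geminin, the inhibitor that binds CDT1. Cdt1 reads per 100 Gmnn reads were 370.3, 342.7 and 441.7 in control and 311, 263.8 and 330 after knockdown (exact permutation test, p = 0.1, adjusted p = 0.2). Geminin RNA itself, named because this ratio turns on it, was sparse, with 80 to 344 reads a library, and did not pass the test (log2 fold change −0.24, SE 0.2, adjusted p = 0.475 by edgeR).

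The genes of the fork and of nucleotide supply stayed within the control range or close to it. Pcna, the sliding clamp that DNMT1 binds, was at 355.4, 317.8 and 278.4 in control and at 317.8, 304.6 and 296 after knockdown, all inside the control range (log2 fold change −0.05, 95% interval −0.32 to 0.22). Cdc6, the partner of CDT1 in licensing, was at 197.8, 146.8 and 125.2 against 127.4, 163.3 and 163.5, also inside it (−0.06, interval −0.51 to 0.4). Rrm1 and Rrm2, the subunits of ribonucleotide reductase, had log2 fold changes of −0.08 (interval −0.31 to 0.15) and 0.06 (−0.25 to 0.37), and Tyms, thymidylate synthase, of −0.02 (−0.34 to 0.3). None of these intervals reached 1.5-fold.

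The 19 mitosis genes spanned the narrowest range of log2 fold changes, from −0.24 (Bub1) to 0.26 (Cenpf). All 19 intervals lay within 1.5-fold, 14 values were below 0 and 5 above, the median log2 fold change was −0.06, and none passed the test. Without negative siRNA replicate 1 this balance turned, with 5 of 19 values below 0 and a median of 0.05, and 2 of the 19, Mki67 and Cenpf, passed the false discovery rate upward. So did 1034 of all 15214 genes tested in that fit. Mki67, the proliferation antigen Ki-67, was at 6680.5, 4849 and 4948 in control and at 5715.1, 6068.1 and 6061.1 after knockdown. The knockdown values lay between control replicate 1 and the other controls (log2 fold change 0.11, SE 0.12, adjusted p = 0.572 by edgeR), and without that replicate the value was 0.28 with adjusted p = 0.0336. That was the only 1 of the 6 fits with a culture left out in which Mki67 passed (highest adjusted p = 0.875 by edgeR). Top2a, the topoisomerase that untangles chromosomes, was at 5051.8, 4030.7 and 3612.9 against 3860.6, 3832.1 and 3903.9, also within the control range (−0.13, SE 0.11, adjusted p = 0.489 by edgeR). Mki67 reads per 100 Top2a reads were 132.2, 120.3 and 137 in control and 148, 158.3 and 155.3 after knockdown. This ratio was higher in each knockdown culture than in any control (130 ± 8.58 against 154 ± 5.29; exact permutation test, p = 0.1, adjusted p = 0.2).

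Ccnb1, cyclin B1, was at 437.7, 318.5 and 304.8 in control and at 337.9, 387.7 and 309.1 after knockdown, and all 3 knockdown values lay inside the control range (log2 fold change −0.04, 95% interval −0.41 to 0.33). Its sister Ccnb2, whose promoter is printed above, was at 968.7, 1034 and 722.4 against 895.7, 721.5 and 827.6 (−0.16, interval −0.48 to 0.17). Cdk1, the mitotic kinase, was at 1537.7, 1324.3 and 1089.5 against 1119.7, 1119.5 and 1151.4, so that the knockdown cultures sat at the low end of the control range (−0.22, SE 0.12, adjusted p = 0.258 by edgeR, and −0.34 with adjusted p = 0.0444 without negative siRNA replicate 3). It passed in only that 1 of the 6 fits with a culture left out (highest adjusted p = 0.54 by edgeR). The regulators of mitotic entry and exit varied little: Foxm1, the transcription factor of G2 genes, had a log2 fold change of −0.13, Ccna2 of −0.03, the phosphatase Cdc25c of 0.07, and Cdc20, which activates the anaphase-promoting complex, of −0.04.

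Among the spindle kinases, log2 fold changes were −0.1 for Plk1, −0.19 for Aurka and −0.08 for Aurkb, and that of Birc5, survivin, the partner of Aurora B, was 0.05. The spindle checkpoint genes Bub1 and Bub1b had values of −0.24 (95% interval −0.53 to 0.04) and −0.06 (−0.31 to 0.19). The kinesins Kif11, Kif20a and Cenpe were at 0.07, −0.06 and −0.02. Cenpf, a protein of the outer kinetochore, was the mitosis gene whose groups did not overlap, at 1690, 1469 and 1292.4 in control and 1795.5, 1747.7 and 1807.2 after knockdown. Its knockdown values lay just above the highest control (0.26, SE 0.1, adjusted p = 0.119 by edgeR, and 0.37 with adjusted p = 0.0238 without negative siRNA replicate 1). Cenpf, too, passed in only 1 of the 6 fits with a culture left out (highest adjusted p = 0.326 by edgeR). Summed over the 19 genes, mitotic RNA amounted to 1429, 1161 and 1074 CPM in control and 1189, 1206 and 1213 CPM after knockdown, the latter all inside the control range.

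The replication and mitosis genes varied together among the control cultures, and the G1/S genes did so less. Negative siRNA replicate 1 was the highest of the 3 controls in 39 of the 45 members (86.7%), against 30.3% of all genes, and this held for 12 of 12 replication, 18 of 19 mitosis and 9 of 14 G1/S genes. Replicate 3 was the lowest control in 31 of 45 (68.9%, against 31.4% of all genes), but in only 6 of the 14 G1/S genes. Summed G1/S RNA, most of it from Ccnd2, was highest in replicate 3, at 2495, 2378 and 2762 CPM in the 3 controls. Replicate 3 was the highest control in only 3 of the 14 G1/S genes, Ccnd2 among them. As a log2 deviation from the control mean, the median replication gene was at 0.23, −0.05 and −0.17 in the 3 control cultures and at −0.12, −0.11 and −0.16 in the 3 knockdown cultures. The median G1/S gene was at 0.08, −0.05 and 0.02 in control and at −0.08, −0.02 and −0.04 after knockdown. The median mitosis gene was at 0.24, −0.03 and −0.19 in control and at −0.03, −0.06 and −0.08 after knockdown, whereas the median of all genes lay between 0 and 0.01 in each culture. The knockdown cultures were thus much alike in these genes: the median SD on the log2 scale was 0.209 in control and 0.0514 after knockdown, against 0.176 and 0.0989 over all genes. The SD was smaller after knockdown in 43 of 45 members (95.6%), against 72% of all genes. All 3 knockdown values lay inside the control range in 20 of 45 members (44.4%), against 20.8% of all genes.

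**Figure D3:**
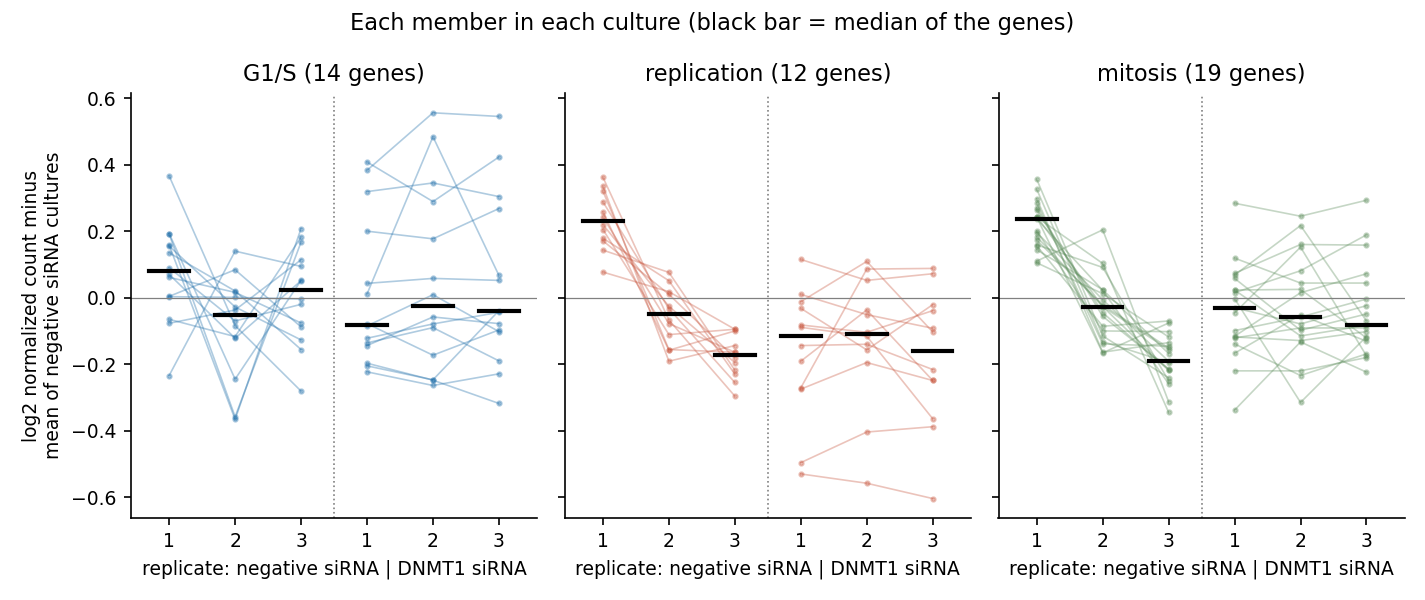
The log2 normalized count of each member minus its mean in the negative siRNA cultures (y axis) is plotted by culture (x axis) for the G1/S, replication and mitosis genes; each line is a gene and black bars are medians. In the replication and mitosis panels control replicate 1 lies highest, with medians of 0.23 and 0.24, and the DNMT1 siRNA medians lie between −0.16 and −0.03.

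The control culture with the highest replication and mitosis RNAs had the lowest sums of both fibroblast and cardiomyocyte markers. Fibroblast and mesenchyme markers summed to 36080, 55680 and 38250 CPM in control replicates 1, 2 and 3, and cardiomyocyte markers to 1683, 2104 and 1826 CPM. These sums rest mostly on the most abundant markers, and single markers differed in their order. Myh6 was lowest in replicate 1 (11880.5, 17338.1 and 19339.6 normalized counts), but Tnnt2 was highest there (19242.6, 17551.8 and 13782.7). Col1a1 was nearly level in replicates 1 and 3 (428238.4 and 432434.3), and Dcn was lowest in replicate 2 (7085.5, 5576.9 and 7287.9). Replicate 1 also had the most reads on genes, 35896018 against 31480073 and 27852412, and the part of these differences was not tested. Because replicate 1 weighed on most members, the comparison was repeated without it, and the median log2 fold change of the 45 genes was then 0.03, with 19 of 45 values below 0 in place of 33. Mcm6 and Cdt1 still fell on the false discovery rate alone in that fit (−0.39 with adjusted p = 0.0152 and −0.48 with adjusted p = 0.0273 by edgeR). Rb1, Mki67 and Cenpf rose on the same limit, and all 3 stayed under 1.5-fold. Over all 15214 genes tested in that fit, 1034 rose and 1060 fell on this limit.

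Levels between genes were compared as CPM per kilobase of merged exons. Ccnd2 was the most abundant member at 172 ± 19.5 (SD, n = 3) in control and 199 ± 6.56 after knockdown, followed by Cdk4 at 76.3 ± 7.66 and 64.5 ± 0.988. These levels stood apart from each other and from all others in control. Below them came Ccnb2, Mki67, Plk1, Ccnd3 and Ccnd1 at 22.5 to 27.3, which overlapped in the control cultures. After knockdown the other D cyclins ranked above these mitotic genes, with Ccnd1 at 31.3 ± 2.07 and Ccnd3 at 30.7 ± 0.444. The lowest members were Cdc25c at 1.79 ± 0.194, Cdc6 at 1.38 ± 0.328 and E2f2 at 0.855 ± 0.0609. Of the 44 neighbouring pairs in the order of control levels, 39 had overlapping ranges, so most neighbours did not differ beyond their spread. Lengths of the longest transcript in place of merged exons moved 6 members by over 5 ranks.

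**Figure D4:**
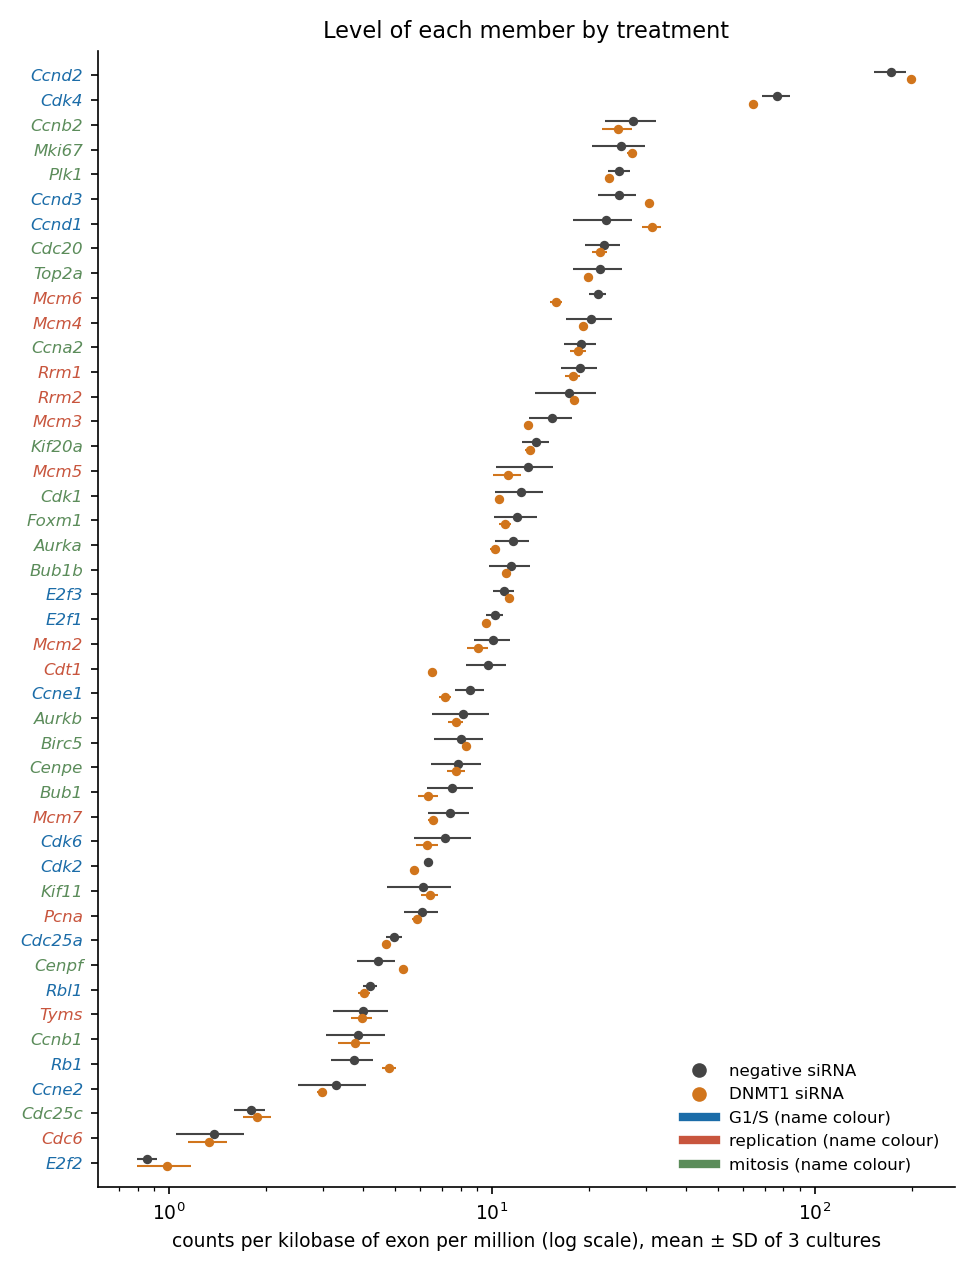
The level of each member in CPM per kilobase of exon (x axis, log scale), as mean ± SD of 3 cultures, for negative siRNA (dark) and DNMT1 siRNA (orange), ordered by the control level. Ccnd2 and Cdk4 stand apart at the top, and E2f2 is lowest, at 0.855 in control.

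The wider machinery was read from lists of 124 further genes, all of which were tested. At the limits 0 rose and 0 fell, against 4.26% and 2.23% of all genes, and 22 of 124 had an unadjusted p below 0.05 by edgeR, against 29.2%. On the false discovery rate alone 0 rose and 6 fell, against 6.81% and 5.65% of all genes, so the share that fell was near the background. That count was 10 under DESeq2 and under edgeR's exact test, which each called 1 of the 124 down at both limits, 17 without negative siRNA replicate 3, and 0 without DNMT1 siRNA replicate 1, 2 or 3. Over all genes, the number that fell on this limit also moved between fits. It was 874 in the main fit, 1080 under DESeq2, 1101 under the exact test and 853 without negative siRNA replicate 3. Without DNMT1 siRNA replicate 1, 2 or 3 it was 197, 142 and 205. The genes of these lists named here were chosen after their values were seen. Tfdp1, the dimer partner of E2F proteins, was at 979.8, 903.7 and 897.4 in control and at 710.7, 736.1 and 626.4 after knockdown (log2 fold change −0.42, adjusted p = 0.0195 by edgeR). Mybl2, the B-Myb subunit of the complex that activates G2 genes, had a value of −0.49 (adjusted p = 0.0332), and Cdkn1b, which encodes the CDK inhibitor p27, of −0.36 (adjusted p = 0.035). The other 3 belong to replication: Rfc3 at −0.53 (adjusted p = 0.0284) and Rfc1 at −0.34 (adjusted p = 0.0202), subunits of the loader of PCNA, and Dbf4 at −0.38 (adjusted p = 0.0319), the activator of the CDC7 kinase. All 6 had knockdown values below every control, as did 17.7% of all genes tested. This adds no support, because the 6 were picked by their test in the same libraries.

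By list, other replication genes had the lowest median log2 fold change, −0.22, with 35 of 38 values below 0 (against 50.7% of all genes), 11 lower groups without overlap (against 17.7%) and 0 higher (against 18.3%). Without negative siRNA replicate 1 their median was −0.13 with 30 of 38 values below 0, and the lowest median was then that of the CDK inhibitors, −0.2. Summed over this list, RNA amounted to 935.9, 825.5 and 754 CPM in control and 712, 711.4 and 726.9 CPM after knockdown. Uhrf1, which brings DNMT1 to hemimethylated DNA, was at 1084.2, 790 and 816.5 against 757.6, 778.4 and 783.4 (−0.22, SE 0.12, adjusted p = 0.291 by edgeR). The other mitosis genes had 34 of 43 values below 0 and a median of −0.13, and among them 1 group was higher without overlap, Aspm (0.34, adjusted p = 0.0908). Without that culture the other mitosis genes had a median of −0.01 with 22 of 43 values below 0, and the checkpoint and repair genes a median of 0.05 with 4 of 12. In the fit with all cultures, other G1/S regulators had a median of −0.13 (16 of 23 below 0), CDK inhibitors of −0.17 (7 of 8) and genes of the checkpoint and repair of replicating DNA of −0.09 (10 of 12). Of the CDK inhibitors, Cdkn1c, which encodes p57, had the lowest value, with 717.2, 1353.2 and 606.5 in control and 533.7, 460.6 and 453 after knockdown. The control cultures differed widely in it, and it did not pass edgeR's quasi-likelihood test (−0.89, SE 0.28, adjusted p = 0.0719). DESeq2 and edgeR's exact test each called 1 CDK inhibitor down at both limits. So did the fits with no filter and without negative siRNA replicate 3, and the other alternative fits called none. Cdkn1c was the only gene of that list whose change in the main fit exceeded 1.5-fold. The paper reports decreased expression of Cdkn1c. Cdkn1a, which encodes p21 and arrests the cycle in G1, had a log2 fold change of 0.18 (95% interval −0.06 to 0.42).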

How the data were processed

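Poly(A) RNA of VCAM1-sorted cells was sequenced in 1 library per culture. Per the paper's methods, the authors cleaned reads with FastQC, used TopHat2 to align them to mm10 (GRCm38) and HTSeq to count reads in Ensembl genes, and the deposited values are raw counts per gene. Versions and the strand setting are not given in the sources used here, so reads of the 16 members whose exons overlap another gene, 14 of them on the opposite strand, may be shared. Groups were taken from the sample titles.

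The test was that of edgeR 4.0.16 in R 4.3.3 (TMM, filterByExpr with a minimum count of 10 and a minimum total of 15, quasi-likelihood F test without covariates, Benjamini-Hochberg adjustment over 15470 genes), and the code was tested on simulated data. SE is the absolute log2 fold change over the square root of F, and intervals are 95%. Normalized counts are scaled to TMM-adjusted library sizes, and 0.5 was added before log2 for spreads. Gene lengths and positions came from GENCODE M21, in which 42548 of 43629 genes and all 220 listed symbols were found, and promoters from RefSeq. Libraries of a group differed beyond counting noise, with a chi-square per degree of freedom of 26.4 to 54.5 between control pairs. Between pairs of the shallower knockdown libraries it was 2.7 to 9.86. Depth, given with the results, bounds counting error only. DESeq2 1.42.0, edgeR's exact test, other scalings, no filter, a replicate block and leaving out each culture were alternatives. The members, lists and tests were chosen with earlier results of these data known. Named genes were the 45 members, Dnmt1 and listed genes past the limits, of which the pathway lists held none, and the other genes named were chosen after their values were seen or because a result turned on them.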

Additional observations from a re-analysis of the deposited data

How the results depend on the processing

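No member passed both limits upward under any alternative run. Cdt1 passed both limits downward (1 member called) with total counts in place of TMM, with no filter on low counts and without negative siRNA replicate 3, so the count of members called down ran from 0 to 1 over the fits that left out a culture. On the false discovery rate alone, 2 members rose under DESeq2 (Ccnd1 and Ccnd3), 1 under edgeR's exact test (Ccnd1), 3 with no filter (Ccnd1, Ccnd3 and Rb1) and 0 to 3 when a culture was left out. On that limit 4 fell with no filter (Cdk4 and Mcm3 besides Mcm6 and Cdt1) and 0 to 4 when a culture was left out: 4 without negative siRNA replicate 3, 0 without DNMT1 siRNA replicate 1 or 2, and 1, Mcm6, without DNMT1 siRNA replicate 3. Over all genes, 659 rose and 345 fell at both limits, and 1054 and 874 on the false discovery rate alone. On the latter limit the counts were 1182 and 1080 under DESeq2 and 1322 and 1101 under edgeR's exact test. With no filter, which tests 31775 genes and moves the median log2 fold change of all genes to 0.113, they were 994 and 701 at both limits and 1539 and 1740 on the false discovery rate alone. When a culture was left out, 255 to 823 rose and 112 to 472 fell at both limits, and 288 to 1440 and 142 to 1238 on the false discovery rate alone. The cause of these shifts was not tested.

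No pairing by replicate number was seen: deviations from the group means of same-numbered cultures correlated at 0.011, −0.018 and 0.023 across genes. Cultures of different numbers correlated at −0.071 to 0.064. Whether same-numbered cultures were prepared together cannot be told from these values. In a fit that took the replicate number as a block, 0 members passed both limits and 0 rose and 2 fell on the false discovery rate alone, so no member's call changed. Over all genes in that fit, 513 rose and 285 fell at both limits, and 694 rose and 494 fell on the false discovery rate alone. Of the 124 further genes, 1 in place of 6 fell on the false discovery rate alone with the block, and 14 with no filter. Over all genes, 494 in place of 874 fell on that limit with the block, and 1740 of 31775 with no filter.

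The sign of 19 members, all with small values, turned in at least 1 fit that left out a culture, 14 of them without negative siRNA replicate 1, and none of the turned values exceeded 0.15. Their log2 fold changes over these fits ran from −0.28 to 0.06 for Ccne2, −0.01 to 0.08 for E2f3, −0.19 to 0.15 for Cdc6, −0.17 to 0.05 for Mcm4, −0.14 to 0.04 for Pcna, −0.04 to 0.25 for Rrm2, −0.14 to 0.14 for Tyms, −0.23 to 0.02 for Top2a, −0.21 to 0.01 for Foxm1, −0.1 to 0.06 for Ccna2, −0.13 to 0.15 for Ccnb1, −0.01 to 0.15 for Cdc25c, −0.11 to 0.07 for Cdc20, −0.23 to 0.05 for Aurkb, −0.05 to 0.2 for Birc5, −0.17 to 0.02 for Bub1b, −0.04 to 0.27 for Kif11, −0.1 to 0.03 for Kif20a and −0.1 to 0.13 for Cenpe. The knockdown libraries were shallower (median depth lower by a factor of 2.09), and counting error weighs most on the sparse members E2f2, Cdc6, Cdc25c and Ccne2.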
